A study of Mus musculus with 59 samples.

Results

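The comparison described here is whole uterus at D3.5 of pregnancy, in 5 female mice whose uterine epithelium was to lack oestrogen receptor alpha, against 5 control females. Its 10 libraries are those of the undigested uterine piece (U) taken on that day, of 59 libraries in all. The knockout mice, epiERα-/-, carried Esr1f/- (1 floxed and 1 null allele of Esr1, the gene of the receptor) with Wnt7aCre/+, and are numbered 32, 33, 34, 35 and 37. The control mice carried Esr1f/- without Cre, so that they too had a single working Esr1 allele, and are numbered 11, 12, 13, 14 and 16. Females of about 2 to 6 months were mated with wild-type stud males, and the day of the plug was counted as D0.5. Part of a uterine horn was frozen without digestion, and each library comes from 1 mouse. Other preparations are used only for values set beside these: luminal epithelium scraped out after dispase digestion (LE, 6 knockout and 4 control libraries at D3.5), digested uterus (DU, 3 and 3), and undigested uterus at D0.5 (4 and 6). Part of those came from the same mice.

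Oestrogen receptor alpha is a ligand-activated transcription factor found in the epithelium, stroma and muscle of the uterus. Around D3.5 the mouse uterus is under progesterone, and a short rise of oestrogen makes the glands release leukaemia inhibitory factor (LIF), which acts on the luminal epithelium through its receptor chains Lifr and Il6st (gp130) and the transcription factor Stat3, a route needed for the embryo to implant. Wnt7a-driven Cre is known to act in the epithelium of the female tract, luminal and glandular, so stroma and muscle should keep Esr1. A whole-uterus library mixes all these cells, and in it fewer cells of a type and less RNA per cell cannot be told apart. The library totals lay between 16704000 and 34221900 estimated counts in the knockout group and between 17231600 and 27547500 in the control group. The defining markers of epithelium (Epcam, 55.9 CPM or more), stroma (Col3a1), muscle (Acta2) and endothelium (Cdh5) were detected in each of the 10 libraries.

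Esr1 stood at 148, 149, 130 and 123 CPM (counts scaled to a common library size) in knockout libraries 32, 34, 35 and 37 and at 212 CPM in knockout library 33, against 172, 191, 195, 135 and 172 CPM in the 5 control libraries. Library 33 thus held more Esr1 than each control library, and the others overlapped the control group through control library 14. With all libraries the mean was 152 ± 35.2 CPM for knockout mice, against 173 ± 23.6 CPM for control mice (SD, n = 5 each), a difference of −0.20 on the log2 scale (two-sided exact permutation test, p = 0.254). On the authors' TPM values the difference was −0.27 (exact permutation p = 0.468). Counts over the whole gene also include any transcript left from a deleted allele. A run of 4 genes beside Wnt7a sets the same library apart. Chchd4, Tmem43, Xpc and Lsm3, neighbours on chromosome 6 by the RefSeq order of GRCm38.p6, had a mean log2 CPM of 5.89, 6.11, 6.20 and 6.15 in knockout libraries 32, 34, 35 and 37 and of 4.71 in library 33, against 4.80 to 5.23 in the control libraries. Tmem43, a nuclear envelope protein gene, is an example at 149, 175, 178 and 176 CPM in those 4 knockout libraries and 65.1 CPM in library 33, against 66.7 to 85.8 CPM in control. Among 14 more genes tested at up to 10 places from Wnt7a, itself counted, no call was made. The library labelled knockout 33 went against its label in both measures. Counts of genes called for knockout against control, and the values of some genes, are given with and without it. Where not stated otherwise, the knockout means and tests of whole uterus at D3.5 below leave it out. With it, no gene named below was called in whole uterus at D3.5 other than Krt15 and Clca1. It was set apart by these very levels, so values without it are only a description for Esr1 and the 4 neighbours. The 4 neighbours are among the called genes counted without library 33 below. Leaving out a library that resembles the other group also enlarges differences in other genes, and the adjusted p values without it hold for the 4 knockout libraries kept.

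**Figure D1:**
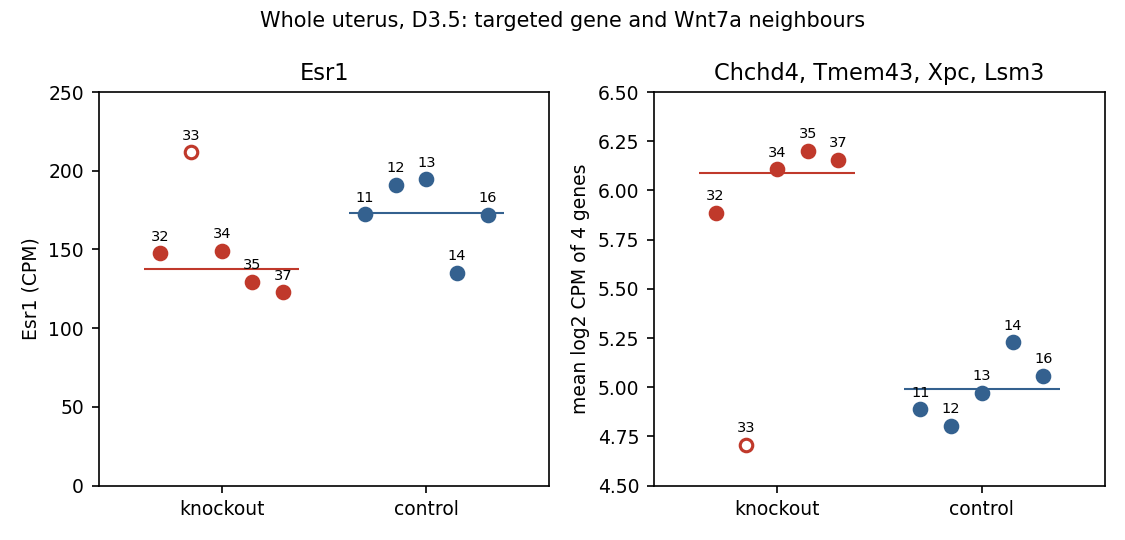
Esr1 level in CPM (left) and the mean log2 CPM of Chchd4, Tmem43, Xpc and Lsm3 (right) in each whole-uterus library at D3.5, knockout left and control right. Points are mice with their numbers, the open point is knockout library 33, and lines are group means without it; library 33 lies at 212 CPM of Esr1 and at 4.71 on the right, in or beyond the range of control libraries.

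With all 10 libraries, 3 of 16232 tested genes (0.0185%) were called, meaning an adjusted p under 0.05 in edgeR's quasi-likelihood test with Benjamini-Hochberg adjustment. All 3 were higher in knockout uteri, Krt15 and Clca1 among them. None of the 3 kept its call in most fits that left out 1 library, and 682 genes had an unadjusted p under 0.05. With any 1 control library left out, for example, all 3 were lost. Without library 33, 112 of 16167 genes (0.693%) were called, 42 higher (0.26%) and 70 lower (0.433%) in knockout uteri, and these included the 3 above. That count lay between 55 and 98 when 1 further library was left out, with 55, 65, 66 and 74 genes without knockout library 37, 35 and 34 and control library 16. Most of the changes were large: 38 of the 42 and 62 of the 70 differed at least 2-fold, and 13 and 18 at least 10-fold, while 788 and 78 of all 16167 tested genes did. In 41 of the 42 higher genes and 69 of the 70 lower genes the 4 knockout libraries did not overlap the 5 control libraries, against 2.67% of all tested genes in the higher and 2% in the lower direction. The genes were called on these same libraries, so large folds and a lack of overlap follow in part from the calling. Both are a description only. With all 10 libraries the share of all tested genes without overlap was 0.801% higher and 0.53% lower. Library 33 took no part in the fit that called the 112 genes. It fell within the control range in 71 of the 112 (63.4%), against 47.1% of all tested genes. It fell within the range of the other 4 knockout libraries in 1 of the 112, against 35.2% of all tested genes. The calling itself parts the ranges of the groups in the 112, so the shares of all tested genes are no like measure beside these.

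Several of the genes highest in knockout uteri are known from epithelia. Aqp4, a water channel gene, stood at 9.07, 14.9, 23 and 15.4 CPM in knockout libraries 32, 34, 35 and 37 and at 0.92 CPM in library 33, against 0.387, 0.647, 0.21, 0.282 and 0.514 CPM in control uteri. Every one of the 4 knockout libraries was above all control libraries, and library 33 lay just over them. The difference was 5.20 ± 0.76 on the log2 scale (SE, adjusted p = 0.0012; with library 33, 4.91 ± 0.86 and 0.0539). On log2(TPM + 1) in limma the call of Aqp4 was lost (2.11, adjusted p = 0.0973). Lamb3, a laminin chain of the epithelial basement membrane, averaged 15.9 ± 2.99 CPM in 4 knockout libraries, against 2.58 ± 0.627 CPM in 5 control libraries (log2 2.61 ± 0.31, adjusted p = 0.000169), with library 33 at 2.05 CPM.

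Clca1, a secreted regulator of chloride channels, stood at 3.97, 3.67, 26.1 and 8.35 CPM in knockout libraries 32, 34, 35 and 37 and at 0.92 CPM in library 33, against 0.282 to 0.946 CPM in control (log2 4.36 ± 0.58, adjusted p = 0.000444; with library 33, 4.08 ± 0.68 and 0.0487). Library 35 was the highest by a wide margin, and estimates for single Clca genes can share reads. Gabrp, a GABA-A receptor subunit gene, averaged 8.35 ± 7.06 CPM in knockout against 0.538 ± 0.446 CPM in control (log2 3.99 ± 0.66, adjusted p = 0.00406). Cdh16, the gene of a cadherin first known from kidney, averaged 5.85 ± 2.09 CPM in knockout against 0.464 ± 0.38 CPM in control (log2 3.68 ± 0.63, adjusted p = 0.00563). Both means are over 4 knockout and 5 control libraries. With library 33, which held 1.07 CPM of Gabrp and 0.818 CPM of Cdh16, their adjusted p values were 0.0682 and 0.0848. On log2(TPM + 1) in limma neither Gabrp nor Cdh16 passed (adjusted p = 0.202 and 0.302). Among 16 water and ion transport genes 2 were higher and none lower: Aqp4 and Scnn1a, a subunit of the epithelial sodium channel (24.9 ± 5.72 CPM in knockout against 8.03 ± 2.7 CPM in control, log2 1.63 ± 0.36, adjusted p = 0.0382). Of all tested genes 0.26% were called higher. The median log2 fold change of the transport list was 0.39, beside 0.02 over all tested genes. The call of Scnn1a rested on most single libraries: it held only without control library 14, and its adjusted p reached 0.176 without knockout library 37. Another subunit, Scnn1b, was at 15.7 ± 1.56 CPM in knockout against 9.83 ± 3.29 CPM in control (adjusted p = 0.824).

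**Figure D2:**
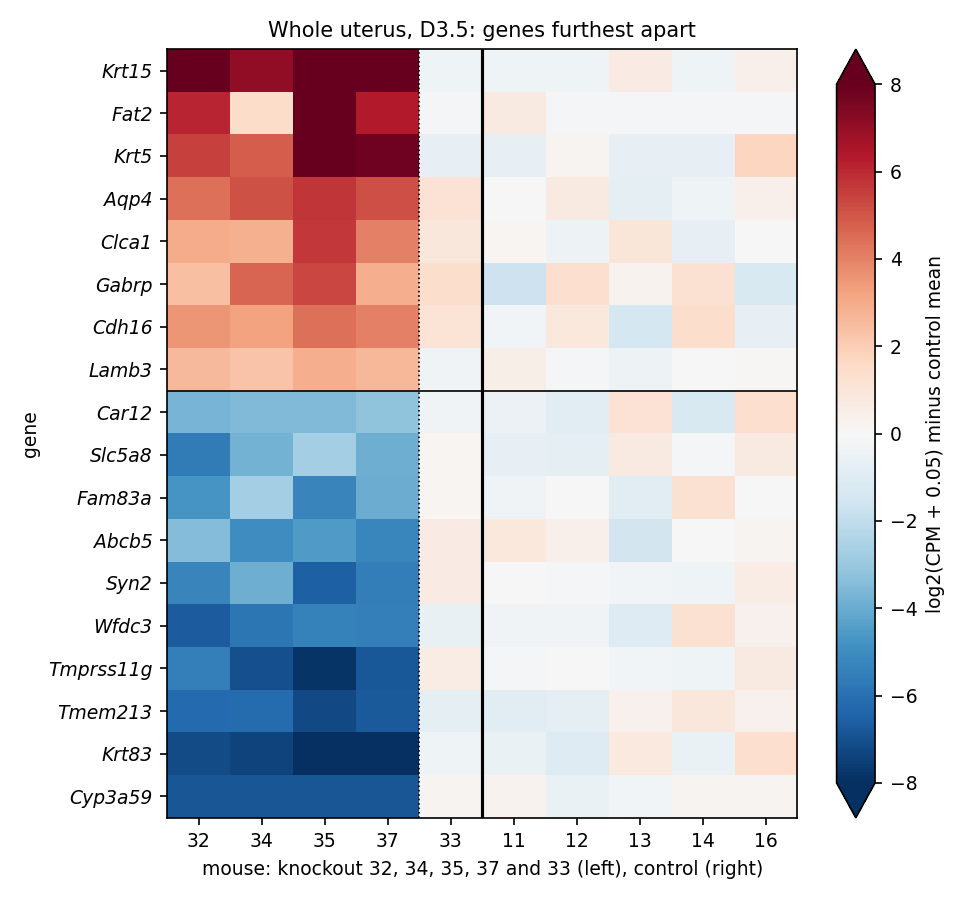
Level of 8 called genes of highest and 10 of lowest fold change (at least 5 CPM on average where they were higher), as log2(CPM + 0.05) minus the control mean, per mouse; knockout mice are left of the solid line, with library 33 beside it, and control mice are right. Library 33 has the pale colours of the control columns in the upper and the lower rows, with Aqp4 for example at 0.92 CPM.

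Of the named genes Krt15, Fat2 and Krt5 had the highest fold changes. Krt15, a keratin of basal layers in stratified epithelium, stood at 23.2, 8.53, 216 and 70.9 CPM in knockout libraries 32, 34, 35 and 37, and no count was seen in library 33, against 0.0525 and 0.0343 CPM in control libraries 13 and 16 and none in the other 3. The 4 knockout libraries held 8158 estimated counts in all, against 2 in the control group, a ratio of 4298 with a 95% exact counting interval of 1189 to 35490, which covers counting error only (adjusted p = 3.51e-05; with library 33, 0.0289). Krt5, its basal partner keratin, stood at 3.45, 2.25, 43.1 and 17.2 CPM in the same 4 libraries and was at 0 in library 33, against 0 to 0.206 CPM in control (log2 8.00 ± 1.32, adjusted p = 0.00406; with library 33, 0.0848). Fat2, a protocadherin gene, stood at 3.78, 0.109, 15.1 and 4.63 CPM in the 4 knockout libraries, with 591 counts against 1 in the control group, a ratio of 623 with a 95% exact counting interval of 111 to 24640 (adjusted p = 0.00795; with library 33, 0.102). The call of Fat2 was lost without control library 11 (adjusted p = 0.0546). The order of the mice was the same for Krt15 and Krt5, with libraries 35 and 37 above 32 and 34.

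The list of 10 stratified epithelium markers holds Krt5, and Krt15 is not in it. Its summed level was 8.37, 4.54, 54.1 and 22.4 CPM in knockout libraries 32, 34, 35 and 37 and 2.4 CPM in library 33, against 1.27 to 2.57 CPM in control. Of its members 4 were tested and Krt5 was called higher, beside 0.26% of all tested genes. Trp63, the master regulator of basal epithelial cells, averaged 2.92 ± 1.97 CPM in 4 knockout libraries, against 0.663 ± 0.196 CPM in control (adjusted p = 0.104). Krt14 was at 0.642 ± 0.676 CPM in knockout against 0.0775 ± 0.115 CPM in control (adjusted p = 0.74), and Krt6a had no count in the 4 knockout libraries. Outside that list Sprr1a, a cornified envelope protein gene, and Zfp750, a regulator of epidermal differentiation, were called, with means of 3.98 CPM in knockout against 0.11 CPM in control and 1.75 CPM in knockout against 0.505 CPM in control (adjusted p = 0.0311 and 0.0373); they were picked after their values were seen. The part of these markers in the other results was not tested. With libraries 35 and 37 also left out, 23 genes were called in place of 112. Krt15 kept its call there (log2 9.46, adjusted p = 0.0009). Krt5 and Fat2 did not, at a log2 fold change of 5.50 and 7.15 (adjusted p = 0.168 and 0.141).

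Knockout mice with several preparations kept one order of Krt15, lowest in mouse 34 and highest in mouse 35. In digested uterus it stood at 29, 5.54 and 219 CPM in knockout mice 32, 34 and 35, against no count in control mice 11, 14 and 16. In luminal epithelium it stood at 212, 196, 101, 1970, 2590 and 1210 CPM in knockout mice 31, 32, 34, 35, 36 and 37, against 41.2, 65.4, 6.59 and 0.531 CPM in control mice 11, 14, 15 and 16. Control epithelium was thus not free of it, but lay below each knockout library. Krt5 in luminal epithelium overlapped, at 28.7, 22.8, 21.6, 457, 576 and 204 CPM in knockout against 8.41, 47.4, 2.07 and 0.228 CPM in control mice. In the edgeR fit of luminal epithelium the difference was 5.20 ± 1.66 for Krt15 (adjusted p = 0.0359) and 3.90 ± 2.18 for Krt5 (adjusted p = 0.272).

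**Figure D3:**
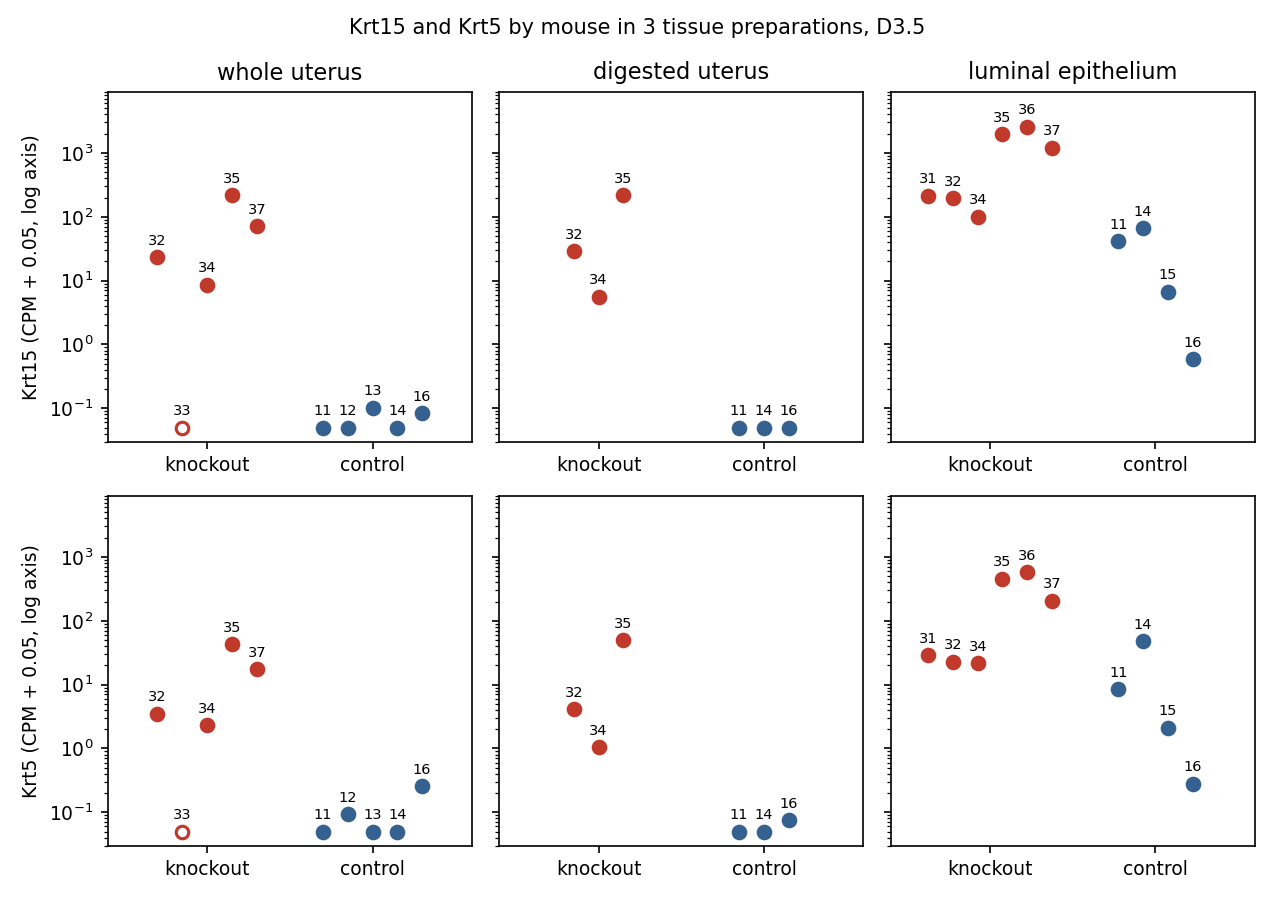
Krt15 (top) and Krt5 (bottom) in CPM + 0.05 on a log axis for each mouse in whole uterus, digested uterus and luminal epithelium at D3.5, knockout left and control right in each panel, with mouse numbers at the points and library 33 open. Mouse 35 holds the most Krt15 of the whole and digested uteri, at 216 and 219 CPM, and mouse 34 the least of the knockout mice in all 3 preparations, library 33 aside.

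The 10 genes of lowest fold change stood at 7.12 CPM or less in each of the 4 knockout libraries. Tmprss11g, a membrane serine protease gene, stood at 0.425, 0.109, 0.0436 and 0.143 CPM in knockout libraries 32, 34, 35 and 37 and at 32.5 CPM in library 33, against 19.3, 20.3, 18.2, 16.5 and 35.4 CPM in control. Library 33 lay inside the control range, far from the other knockout libraries. The difference without it was −6.96 ± 0.53 on the log2 scale (adjusted p = 8.09e-07), and with it −1.75 ± 1.03 (adjusted p = 1). Syn2, a synapsin gene best known from nerve endings, stood at 1.32, 3.59, 0.523 and 1.11 CPM in the 4 knockout libraries and at 86.6 CPM in library 33, against 42.7 to 82.3 CPM in control (log2 −5.07 ± 0.54, adjusted p = 3.51e-05). Car12, a membrane carbonic anhydrase gene, stood at 5.15, 5.73, 5.71 and 7.12 CPM in the 4 knockout libraries and at 55 CPM in library 33, against 49, 38.3, 149, 28.7 and 174 CPM in control (log2 −3.89 ± 0.51, adjusted p = 0.000358). Car12 was even across those 4 and ranged widely in control uteri.

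Cyp3a59, a cytochrome P450 gene, had no count in the 4 knockout libraries and 6.65 CPM in library 33, against 5.9 ± 1.41 CPM in control (n = 5). Set against 3 counts over the group it was at least 210-fold lower (adjusted p = 0.000654; with library 33, 1), which covers counting error only, and its reads may be shared with close relatives. Krt83, a hair-type keratin gene, averaged 0.0836 CPM in knockout against 40.7 CPM in control (log2 −8.97 ± 1.21, adjusted p = 0.000546). Tmem213, a transmembrane protein gene, averaged 0.104 CPM in knockout against 15.6 CPM in control (log2 −7.18 ± 0.75, adjusted p = 3.35e-05). Library 33 held 26.3 CPM of Krt83 and 8.39 CPM of Tmem213, in the control range for both. Abcb5, an ABC transporter gene, fell to 0.351 CPM in knockout against 9.3 CPM in control (log2 −4.75 ± 0.87, adjusted p = 0.00934). Fam83a fell to 0.561 CPM in knockout against 9.79 CPM in control (log2 −4.10 ± 0.77, adjusted p = 0.0121), and Slc5a8, a sodium-coupled monocarboxylate transporter gene, to 0.312 CPM in knockout against 5.04 CPM in control (log2 −4.01 ± 0.67, adjusted p = 0.00413). The call of Abcb5 was lost without knockout library 34 or 37 (adjusted p = 0.0513 and 0.06), and that of Fam83a without knockout library 35 or 37 (0.0547 and 0.0654). On log2(TPM + 1) in limma Slc5a8 did not pass (log2 −0.98, adjusted p = 0.756). With library 33 none of the 10 lowest genes was called, and their adjusted p values lay between 0.253 for Car12 and 1.

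Of 16 genes of receptivity and implantation 2 fell without library 33 and none rose, beside 0.433% lower among all tested genes. The list's median log2 fold change was −0.10, beside 0.02 over all tested genes. Il6st, the shared signal chain of the LIF receptor, stood at 486, 414, 355 and 367 CPM in knockout libraries 32, 34, 35 and 37 and at 1074 CPM in library 33, against 898, 907, 912, 574 and 783 CPM in control. The 4 knockout libraries were below all control libraries and library 33 above them (log2 −1.01 ± 0.21, adjusted p = 0.0259; with library 33, −0.59 ± 0.27 and 1). Stat3, the transcription factor activated by that receptor, stood at 176, 169, 150 and 169 CPM in the 4 knockout libraries and at 289 CPM in library 33, against 284, 273, 302, 205 and 310 CPM in control (log2 −0.73 ± 0.16, adjusted p = 0.0294; with library 33, −0.53 ± 0.18 and 0.686). Both calls rested on most single libraries: that of Il6st held only without knockout library 32 or control library 14 and reached an adjusted p of 0.127 without knockout library 35, and that of Stat3 held only without control library 14 and reached 0.137 without knockout library 35. On log2(TPM + 1) in limma neither passed (adjusted p = 0.51 and 0.416). Lif itself stood at 4.3, 3.63, 4.92 and 2.89 CPM in the 4 knockout libraries and at 41.2 CPM in library 33, against 27.2, 19.2, 37.6, 23 and 56.4 CPM in control. The 2 groups did not overlap without library 33, yet the gene did not pass (log2 −3.07 ± 0.72, adjusted p = 0.0623). The ligand-binding chain Lifr was at 35.1 ± 6.7 CPM in knockout against 36 ± 5.83 CPM in control (log2 −0.04 ± 0.24, adjusted p = 0.984). Socs3, the feedback inhibitor that Stat3 switches on, was at 29.3 ± 5.81 CPM in knockout against 63.5 ± 12.5 CPM in control (adjusted p = 0.0852).

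**Figure D4:**
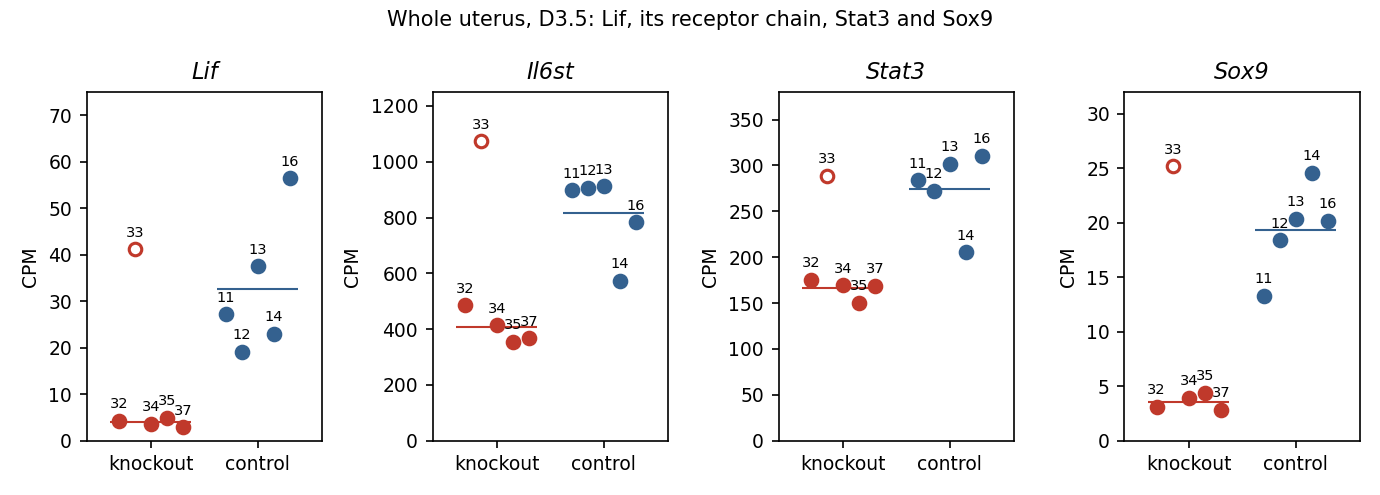
Lif, Il6st, Stat3 and Sox9 in CPM for each whole-uterus library at D3.5, knockout left and control right, with mouse numbers, library 33 open and lines at group means without it. The filled knockout points lie below all control points in each panel, with Il6st at 355 to 486 CPM in knockout and 574 to 912 CPM in control, and library 33 lies among or above the control points.

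Values of 4 other lower genes, picked after their values were seen, are given next. Sbno2, a transcriptional co-regulator gene, averaged 56.2 ± 5.45 CPM in 4 knockout libraries, against 123 ± 28.7 CPM in control (log2 −1.13 ± 0.21, adjusted p = 0.00912). Lrg1, a secreted leucine-rich glycoprotein gene, was at 11 ± 1.13 CPM in knockout against 72.6 ± 29.9 CPM in control (log2 −2.72 ± 0.45, adjusted p = 0.00406). Hp, the haptoglobin gene, was at 2.09 ± 1.31 CPM in knockout against 24 ± 9.67 CPM in control (log2 −3.55 ± 0.57, adjusted p = 0.00341), and Serpina3n, a protease inhibitor gene, at 10.6 ± 11.8 CPM in knockout against 92.2 ± 44.8 CPM in control (log2 −3.11 ± 0.69, adjusted p = 0.0377). With library 33 their adjusted p values were 0.621, 0.0917, 0.102 and 0.65.

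Promoters are shown for Sbno2, Stat3 and Il6st, which were lower in the same 4 knockout libraries, to let the start regions be read beside the values. They are RefSeq windows on GRCm38.p6 of 250 bases before to 50 after the gene start, and capitals mark TTCNNNGAA, the core of a STAT site, which reads the same on both strands. Sbno2, the first of its RefSeq starts, lies on the minus strand at chr10:80102653-80102952 (shown 5′ to 3′ of the gene, as for Stat3), Stat3 on the minus strand at chr11:100939491-100939790, and Il6st on the plus strand at chr13:112463820-112464119.
Sbno2: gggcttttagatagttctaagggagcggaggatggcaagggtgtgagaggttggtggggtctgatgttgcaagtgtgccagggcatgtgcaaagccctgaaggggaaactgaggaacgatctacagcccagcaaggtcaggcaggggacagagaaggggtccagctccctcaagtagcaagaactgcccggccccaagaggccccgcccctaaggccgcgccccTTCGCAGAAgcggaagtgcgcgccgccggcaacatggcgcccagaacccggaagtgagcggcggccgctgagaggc
Stat3: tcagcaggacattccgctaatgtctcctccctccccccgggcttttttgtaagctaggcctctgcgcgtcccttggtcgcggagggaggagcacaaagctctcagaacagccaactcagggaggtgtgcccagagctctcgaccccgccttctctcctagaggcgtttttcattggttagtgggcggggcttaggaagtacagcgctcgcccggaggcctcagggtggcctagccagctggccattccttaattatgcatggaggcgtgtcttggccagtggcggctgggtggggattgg
Il6st: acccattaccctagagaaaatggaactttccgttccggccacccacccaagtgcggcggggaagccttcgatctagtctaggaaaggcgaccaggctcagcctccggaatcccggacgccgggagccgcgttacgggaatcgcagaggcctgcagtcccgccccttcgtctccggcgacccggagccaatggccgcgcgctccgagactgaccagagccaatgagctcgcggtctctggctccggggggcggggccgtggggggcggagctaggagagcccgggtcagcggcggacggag
These letters occur in Sbno2, with the first base 26 before the start, and not in the windows of Stat3 and Il6st. Another Sbno2 start, at chr10:80101138-80101437, held them too, and that at chr10:80075390-80075689 did not. The window of Ier3, also called lower and not shown, did not hold them. Of the called genes, 8 of 55 lower genes with a window (14.5%) and 4 of 26 higher genes (15.4%) held TTCNNNGAA, against 9.55% of the 27025 genes of the table. The palindromic oestrogen response element, GGTCA then NNN then TGACC, reads the same on both strands too, and was in 0 of either group, against 0.074% of all genes. A match is a run of letters and not a bound site, and its absence here says nothing of the factor.

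Of 9 tested gland markers 2 fell and none rose, beside 0.433% lower among all tested genes. Sox9, a transcription factor of gland epithelium, stood at 3.12, 3.96, 4.4 and 2.83 CPM in knockout libraries 32, 34, 35 and 37 and at 25.2 CPM in library 33, against 13.3, 18.4, 20.4, 24.6 and 20.2 CPM in control. The 4 knockout libraries were close to each other and 5.43-fold lower than control (log2 −2.44 ± 0.25, adjusted p = 2.85e-05; with library 33, −1.31 ± 0.46 and 0.768). Wfdc3, a secreted WAP-domain protein gene, stood at 0.0945, 0.218, 0.305 and 0.286 CPM in the 4 knockout libraries and at 9.92 CPM in library 33, against 7.2 to 34.5 CPM in control (log2 −6.18 ± 0.70, adjusted p = 7.13e-05; with library 33, 0.553). The other gland genes did not pass. Foxa2, the defining gland transcription factor, averaged 17.3 ± 5.38 CPM in 4 knockout libraries, against 11.4 ± 5.39 CPM in control (adjusted p = 0.955), and Cxcl15, a gland chemokine gene, averaged 20.7 ± 1.93 CPM in knockout against 26.3 ± 11.5 CPM in control (adjusted p = 0.955). Spink1 was at 81.3 ± 28.9 CPM in knockout against 39.5 ± 22.8 CPM in control (adjusted p = 0.955). Prss29, a gland protease gene, had no count in the 4 knockout libraries and 0.409 CPM in library 33, against 0.602, 0.129, 39.4, 0.904 and 4.15 CPM in control (adjusted p = 0.0702), so that control library 13 carried most of its level. The median log2 fold change of the list was −0.35, beside 0.02 over all tested genes.

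Among 18 epithelial genes known to respond to oestrogen 1 rose, Clca1, and 1 fell, Padi1, a peptidylarginine deiminase gene (4.82 ± 4 CPM in knockout against 30.1 ± 18.4 CPM in control, log2 −2.66 ± 0.50, adjusted p = 0.0125; 0.0589 and 0.0678 without knockout library 34 or 37, and 0.0639 with the D3.5 groups alone). Ltf, the lactoferrin gene, was at 7.89, 16.1, 193 and 28.7 CPM in knockout libraries 32, 34, 35 and 37 and 8.18 CPM in library 33, against 6.82 to 23.7 CPM in control (adjusted p = 0.182). Pgr, the progesterone receptor gene, was at 121 ± 33.1 CPM in knockout against 161 ± 51.2 CPM in control (log2 −0.41 ± 0.33, adjusted p = 0.955), and Wnt7a at 25.6 ± 12.2 CPM in knockout against 11.6 ± 5.31 CPM in control (adjusted p = 0.74). No gene was called among 12 steroid receptors and cofactors (Pgrmc1 179 ± 14.6 CPM in knockout against 140 ± 20 CPM in control) or 13 progesterone-responsive epithelial genes (Gpx3 321 ± 41.4 CPM in knockout against 376 ± 131 CPM in control). Ihh, the epithelial hedgehog ligand switched on by progesterone, was at 34.2 ± 7.68 CPM in knockout against 54.3 ± 14.9 CPM in control (adjusted p = 0.955). Its stromal receptor and target Ptch1 was at 131 ± 33.6 CPM in knockout against 189 ± 69.5 CPM in control (adjusted p = 0.955), and none of 12 hedgehog genes was called. No call was made among 18 stromal hormone targets (Igf1 656 ± 32.5 CPM in knockout against 703 ± 79.8 CPM in control), 16 Wnt genes (Wnt5a 139 ± 15.2 CPM in knockout against 161 ± 27.2 CPM in control), 24 cell cycle genes (Ccnd1 103 ± 24.2 CPM in knockout against 111 ± 10.6 CPM in control) or 19 extracellular matrix genes (Col4a1 1020 ± 80 CPM in knockout against 1380 ± 188 CPM in control). The same held for 19 cholesterol genes and for 15 unfolded protein response (Hsp90b1 586 ± 125 CPM in knockout against 755 ± 115 CPM in control), 15 mucosal defence (C3 671 ± 142 CPM in knockout against 764 ± 269 CPM in control), 14 prostaglandin, 14 junction (Tjp1 140 ± 33.4 CPM in knockout against 161 ± 33.5 CPM in control) and 12 interferon-stimulated genes (Bst2 121 ± 27.6 CPM in knockout against 97.3 ± 27.2 CPM in control). Of 21 immediate early genes Ier3 fell, to 7.88 ± 2.51 CPM in knockout against 38.5 ± 14.7 CPM in control (adjusted p = 0.0148), a call lost without knockout library 32, 35 or 37 (0.0574, 0.0623 and 0.0533). Beside these list counts, 0.26% of all tested genes were called higher and 0.433% lower.

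General epithelial markers varied among the libraries within each group. Of 16 such markers 1 was called, and their mean log2 CPM was 5.60 to 5.90 in the 4 knockout libraries and 4.62 in library 33, against 4.72 to 5.74 in control, with control libraries 11, 12 and 13 near library 33 and 14 and 16 near the others. Among all tested genes 0.693% were called. Epcam averaged 77.8 ± 8.32 CPM in the 4 knockout libraries other than 33, against 85.4 ± 34.7 CPM in control (adjusted p = 0.959). Krt8, a keratin of simple epithelium, averaged 191 ± 30 CPM in the same 4 knockout libraries, against 164 ± 61.6 CPM in control (adjusted p = 0.956). The part of this uneven epithelial content in the results above was not tested. Stromal fibroblast, smooth muscle, mesothelial and macrophage lists held no call, with median log2 fold changes between −0.01 and 0.29; Acta2 was at 3083 ± 779 CPM in knockout against 2379 ± 505 CPM in control and Col3a1 was at 7285 ± 536 CPM in knockout against 7370 ± 481 CPM in control. Ciliated oviduct, nerve, neutrophil, eosinophil and mast cell, embryo and adipocyte lists held none either, with Ovgp1, an oviduct glycoprotein gene, at 38.4 ± 14.8 CPM in knockout against 19.5 ± 3.76 CPM in control (adjusted p = 0.202; 0.0378 without knockout library 35) and Kit, a mast cell receptor gene, at 14 ± 6.86 CPM in knockout against 53.5 ± 28.1 CPM in control (adjusted p = 0.153; 0.0448 without control library 14). Adipocyte markers summed to 37.6 CPM in knockout library 32, 28.6 CPM in control library 11 and 149 CPM in control library 14, against 1.99 to 14 CPM in the other libraries; with those 3 left out, 57 genes were called without library 33.

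Endothelial and erythroid lists held no call. With all 10 libraries, they were among the 4 of 36 lists whose mean log2 level did not overlap between the groups, and without library 33 they were among 9. By summed CPM they were among 3 such lists with all libraries, beside the Wnt gene list, and among 8 without library 33. The 10 endothelial markers summed to 1019, 980.5, 731 and 931 CPM in knockout libraries 32, 34, 35 and 37 and 1036 CPM in library 33, against 1094 to 1277 CPM in control. The 7 erythroid genes had a mean log2 CPM of 1.62 to 2.45 in the 4 knockout libraries and 1.79 in library 33, against 2.79 to 4.56 in control. Library 33 thus lay on the knockout side in both lists. The others of the 4 were the stratified epithelium list and a list of genes higher in knockout luminal epithelium. By summed CPM with all libraries the groups overlapped in both of these lists. In their mean log2 CPM library 33 stood just above the control range, at −2.70 and 0.90. The control libraries held −3.38 to −2.82 and 0.42 to 0.84, and the other 4 knockout libraries −2.09 to −0.54 and 1.19 to 3.02. Hbb-bs, a beta globin gene, was at 83.1 ± 39.6 CPM in knockout against 246 ± 102 CPM in control (adjusted p = 0.128), and its reads can be shared with other globins. Of 12 lymphoid genes Jchain fell, beside 0.433% lower among all tested genes. Jchain is the joining chain gene of secreted antibodies made by plasma cells. It stood at 169, 272, 330 and 211 CPM in the 4 knockout libraries and 839 CPM in library 33, against 727, 931, 541, 938 and 758 CPM in control (log2 −1.67 ± 0.23, adjusted p = 0.000676; with library 33, 0.461). The B cell gene Cd79a was at 5.16 ± 2.37 CPM in knockout against 10.3 ± 5.97 CPM in control (adjusted p = 0.547).

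Values of the 112 called genes were then set beside those of the other preparations at D3.5, where library 33 has no counterpart. In digested uterus, where 93 of 16194 genes were called (0.574%; 0.117% higher and 0.457% lower), 60 of the 112 were called in the same direction and 0 in the opposite one. In luminal epithelium, where 2105 of 15601 genes were called (13.5%; 7.79% higher and 5.7% lower), 107 of the 112 were tested, 63 were called in the same direction and 2 in the opposite one. The preparations come in part from the same mice, so these counts are a description. The difference of the knockout effect, luminal epithelium less whole uterus, was called for 654 of 16006 genes (4.09%; 2.56% with a higher and 1.53% with a lower effect in epithelium) and for 25 of the 112. In the 7 mice with both preparations it was called for 131 genes with mouse as a block and 162 without. Leaving out whole-uterus libraries took the 654 to 343, 370 and 420 (knockout 37, 34 and 35) and to 417 and 426 (control 11 and 12). It was called for several of the genes most reduced in whole uterus. These and the 112 genes were chosen for their whole-uterus effect, which also enters this difference. Selection can thus enlarge it, and the count of 25 is a description. Tmprss11g averaged 0.36 against 0.754 CPM in knockout and control epithelium, where even control libraries held little, and the effect differed from that in whole uterus by 5.92 ± 0.83 (adjusted p = 0.000487). Wfdc3 averaged 1.78 CPM in knockout against 0.341 CPM in control in epithelium and differed by 8.42 (adjusted p = 0.00196). Sox9 averaged 9.17 CPM in knockout against 13.8 CPM in control in epithelium and differed by 1.83 ± 0.49 (adjusted p = 0.0423), and Lif 4.79 CPM in knockout against 2.11 CPM in control with a difference of 4.22 ± 0.84 (adjusted p = 0.00692). In digested uterus Tmprss11g, Wfdc3 and Sox9 were lower in knockout mice (log2 −5.64, −7.22 and −2.75, adjusted p = 0.00149, 0.00272 and 0.00259), and Lif had −2.90 (adjusted p = 0.0577).

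Other genes had a larger effect in luminal epithelium, or one of the other direction. Coch, the cochlin gene, averaged 0.66 CPM in knockout against 890 CPM in control in luminal epithelium and 12.2 ± 7.58 CPM in knockout against 63.5 ± 33.9 CPM in control in whole uterus (log2 −2.38 ± 0.39, adjusted p = 0.00365; 0.0503 with the D3.5 groups alone), and the effects differed by −8.03 ± 0.73 (adjusted p = 1.82e-05). Padi1 was higher in knockout epithelium, at 64.4 CPM in knockout against 15.1 CPM in control, and lower in knockout whole uterus, with a difference of 4.71 ± 1.03 (adjusted p = 0.0124). Aqp4 averaged 146 CPM in knockout against 0.958 CPM in control in epithelium, a larger effect than in whole uterus by 2.10 ± 0.56 (adjusted p = 0.0394). Foxa2 and Cxcl15, not called in whole uterus, had differences of 4.51 ± 0.72 (adjusted p = 0.00137) and 3.63 ± 0.46 (adjusted p = 0.000261), with 51.2 CPM in knockout against 1.42 CPM in control and 19.4 CPM in knockout against 2 CPM in control in epithelium. Ihh averaged 74.6 CPM in knockout against 344 CPM in control in epithelium and differed by −1.53 ± 0.37 (adjusted p = 0.0226). Gene lists chosen for their change in luminal epithelium of this study were also read in whole uterus, and are no independent evidence since mice are shared. Of 15 genes lower in epithelium 5 fell in whole uterus (Syn2, Coch, Abcb5, Ier3 and Stat3), with a median log2 fold change of −1.12. Of 11 tested genes higher in epithelium Aqp4 rose, with a median of 0.68. Among all tested genes 0.433% were called lower and 0.26% higher in whole uterus.

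**Figure D5:**
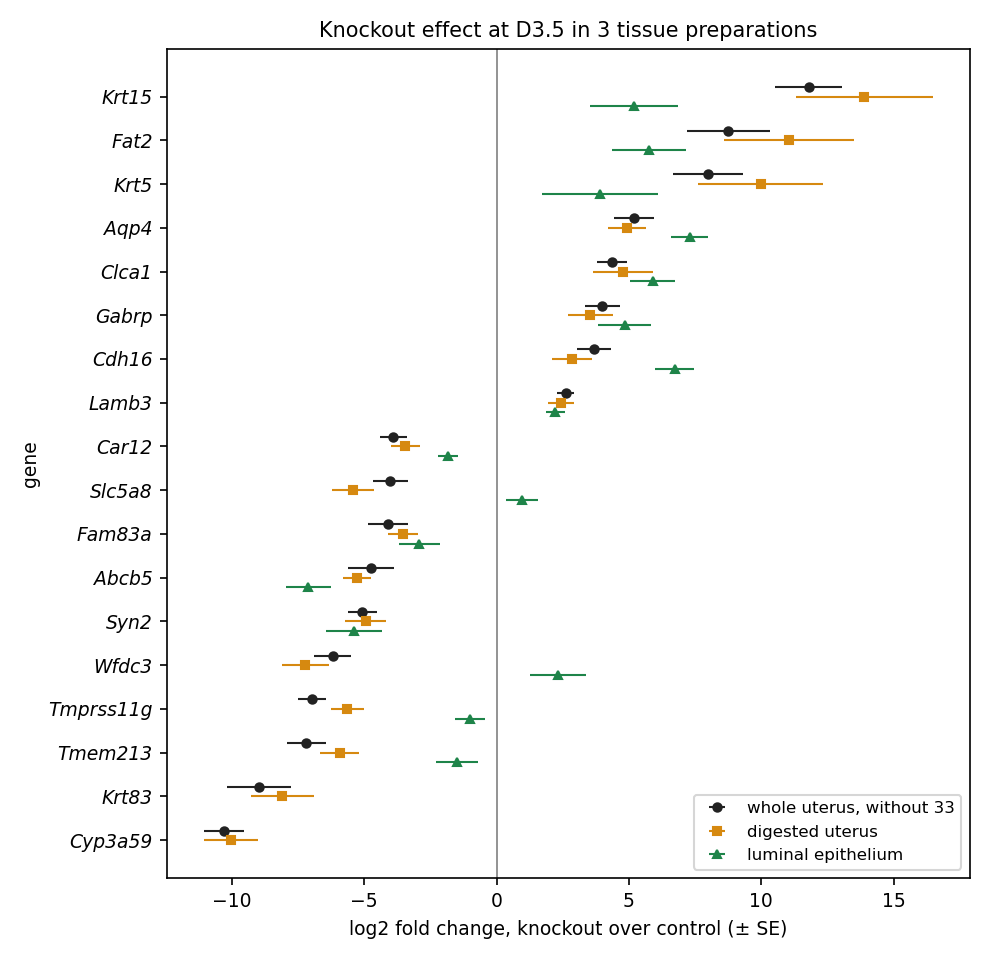
Log2 fold change of knockout over control with its SE for 8 of the highest and the 10 lowest genes, in whole uterus without library 33 (circles), digested uterus (squares) and luminal epithelium (triangles) at D3.5. Whole and digested uterus have the same sign in each gene, while Wfdc3 and Slc5a8 lie above 0 in luminal epithelium (2.32 and 0.97); the value of Cyp3a59, with no count in knockout libraries, depends on the fit and is no bound.

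The knockout effect in whole uterus at D3.5 was set against that at D0.5, where the epithelium is under oestrogen. Without library 33 the 2 effects differed in 294 of 16167 genes (1.82%), 180 with a higher (1.11%) and 114 with a lower effect (0.705%) at D3.5, and with it in 232 of 16232 (1.43%; 0.943% higher and 0.487% lower). At D0.5 itself 809 of 16232 genes were called (4.98%; 2.02% higher and 2.96% lower), and of the 112 genes 20 were called there in the same direction and 2 in the opposite one. Of the 112 called genes 45 were among the 294. The 112 were chosen for their D3.5 effect, which also enters this difference, so that count is a description. The 232 became 137 and 139 without D0.5 knockout libraries 25 and 27, and 370 without 21. Sox9 averaged 92.3 CPM in knockout against 68.2 CPM in control at D0.5, with a difference of −2.88 (adjusted p = 7.01e-05), and Syn2 2.69 CPM in knockout against 2.06 CPM in control, with a difference of −5.42 (adjusted p = 0.000212). Stat3 averaged 572 CPM in knockout against 419 CPM in control at D0.5, with a difference of −1.18 (adjusted p = 0.00723). The D3.5 direction of these genes was thus not seen in their D0.5 means. The 5 genes of smallest p had their large effect at D0.5. Alpl, the tissue-nonspecific alkaline phosphatase gene, averaged 5.33 CPM in knockout against 4.93 CPM in control at D3.5 and 1.38 CPM in knockout against 399 CPM in control at D0.5, a difference of 8.21 (adjusted p = 1.98e-06). Prxl2a averaged 38.5 CPM in knockout against 31.2 CPM in control at D3.5 and 57.7 CPM in knockout against 922 CPM in control at D0.5, a difference of 4.30 (adjusted p = 1.61e-07). Peg10, Arg1 and Adgrg7 had differences of 7.52, 7.29 and 5.83, and none of the 5 was called at D3.5.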

How the data were processed

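RNA of undigested uterus was sequenced from 1 mouse per library; RNA was isolated in 1 batch per tissue and libraries were made with a NEBNext Ultra kit, per the labels' protocols. The authors deposited estimated counts per gene, which the submitters' processing notes tie to kallisto 0.46.1 and GRCm39, and TPM values; the annotation, and how transcripts were summed to genes, are not given in the sources used here. Deposited TPM of the 21706 genes summed to between 684730 and 820332 per library.

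Estimated counts were rounded and tested with edgeR 4.0.16 (R 4.3.3; quasi-likelihood, TMM, filterByExpr with a minimum count of 10 and total of 15) on the 20 undigested libraries of both days, which share 1 estimate of the spread; p values were Benjamini-Hochberg adjusted over all tested genes. Groups came from the labels. CPM use TMM library sizes, and errors are SD for CPM and SE for fold changes. That SE was worked back from the quasi-likelihood test, as the size of the log2 fold change over the square root of its F value. It is approximate, above all where a group held few counts. Means ± SD of knockout uteri are over 4 libraries where library 33 is left out and of control uteri over 5. The luminal epithelium, digested uterus and tissue difference were fitted likewise; the tissue difference left out library 33. Mice are separate animals. Precision rests on 16704000 to 34221900 counts per library, and 2 libraries of a group never agreed within sampling noise (lowest chi-square per degree of freedom 9.38 over 20 pairs).

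The comparison, the 36 gene lists and the tests were chosen with earlier results of these data known. Named genes were Esr1, Pgr, Wnt7a and its 4 neighbours, the 10 highest and 10 lowest called genes that averaged 5 CPM or more where they were higher and had no predicted name, all genes called with every library, up to 4 called members of each list or else its member of highest CPM, and the 5 genes of smallest p in the day difference; some genes that these rules name are not reported here, and other named genes were picked after their values were seen, from the lists or the called genes. Alternatives were median-of-ratios scaling, no filter, DESeq2 1.42.0, limma 3.58.1 (voom with sample weights, and log2 of the deposited TPM with a pseudocount of 1), only D3.5 libraries, and each library left out. The edgeR step was tested on simulated data. For the 7 mice with both tissues, equal numbers were taken to mark the same animal. The correlation of their deviations had a median of 0.183, between −0.150 and 0.422, which does not settle this.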

Additional observations from a re-analysis of the deposited data

Results flagged for a closer look

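Among the genes and lists described, the highest or lowest library of a group of 5 was looked at for its gap to the next one as a share of the group's range. Of 130 groups 26 had a gap share above 0.71, and 18 of the 21 such knockout groups had library 33 at the end. The Wnt7a neighbours set library 33 apart and most of the other genes were named from the fit without it, so these 18 are a description, and the rate of about 1 in 20 groups that chance gives cannot be read against them. Library 33 stood low with a gap share of 0.787 for Chchd4, 0.823 for Tmem43, 0.881 for Xpc and 0.793 for Lamb3. It stood high with 1.0 for Cyp3a59, 0.75 for Krt83, 0.837 for Tmem213, 0.722 for Tmprss11g, 0.788 for Wfdc3, 0.864 for Car12, 0.717 for Il6st, 0.761 for Stat3 and 0.799 for Sox9. Of the mean levels of lists, it stood low for the Wnt7a neighbours (0.789), stromal hormone targets (0.771), general epithelial markers (0.766) and prostaglandin genes (0.856), and high for genes lower in knockout luminal epithelium (0.883). The other 8 gap shares belonged to control library 14 for Pgr (0.738, low), control library 11 for Fat2 (1.0, high), control library 16 for Tmprss11g (0.73, high), knockout library 35 for oestrogen-responsive genes (0.724, high), control library 13 for cell cycle genes (0.725) and ciliated oviduct genes (0.718), both low, knockout library 37 for nerve and glia genes (0.772, low) and knockout library 34 for neutrophil genes (0.732, high). A gap share of 1.0 follows whenever the other libraries of the group hold no count, as for Cyp3a59 and Fat2. That of Fat2 came from 1 count in the whole control group.

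The knockout effect without library 33 differed between D3.5 and D0.5 in 23 of the named genes (edgeR interaction, adjusted p under 0.05), given as the log2 effect at D3.5 less that at D0.5. It was higher at D3.5 by 9.83 for Krt15, 4.29 for Aqp4, 5.80 for Clca1, 3.94 for Gabrp, 3.76 for Lamb3, 1.55 for C3, 1.54 for Bst2, 0.931 for Mbp, 4.30 for Prxl2a, 8.21 for Alpl, 7.52 for Peg10, 7.29 for Arg1 and 5.83 for Adgrg7. It was lower at D3.5, with −3.66 for Tmem213, −2.77 for Tmprss11g, −5.79 for Wfdc3, −5.42 for Syn2, −3.23 for Car12, −1.18 for Stat3, −2.88 for Sox9, −2.77 for Coch, −2.73 for Socs3 and −1.81 for Sbno2.

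The effect in luminal epithelium less that in whole uterus at D3.5 differed in 16 named genes by the same test. It was 2.10 for Aqp4, 3.07 for Cdh16, 5.67 for Tmem213, 5.92 for Tmprss11g, 8.42 for Wfdc3, 4.90 for Slc5a8, 4.71 for Padi1, 1.83 for Sox9, 2.81 for Ccnd1, 4.40 for Peg10, 4.22 for Lif, 4.51 for Foxa2 and 3.63 for Cxcl15. It was −8.03 for Coch, −1.53 for Ihh and −1.08 for Sbno2. Many of these genes, and of those of the day difference, were named for their whole-uterus effect at D3.5. That effect enters both tests, so the numbers of genes are a description.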

How the results depend on the processing

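With all libraries, the 3 called genes became 1 with median-of-ratios scaling, 5 without a filter, 78 with DESeq2, 1439 with limma voom and sample weights, 0 with limma on log2(TPM + 1) (497 at an unadjusted p under 0.05) and 0 with the D3.5 libraries alone (902 unadjusted), and 0 to 112 with 1 library left out, the 112 without library 33. Without library 33, the 112 genes became 240 with DESeq2, 4093 with voom, 76 on TPM and 141 with the D3.5 libraries alone, and 55 to 98 with a further library left out; 23 remained called without libraries 35 and 37 and 57 without libraries 32, 11 and 14, both chosen after the data were seen. The day difference of 232 genes became 523 with DESeq2 and 1029 with voom, and 137 to 370 with 1 library left out (137 and 139 without D0.5 knockout libraries 25 and 27, 370 without 21). The tissue difference of 654 genes became 1204 with DESeq2 and 1550 with voom, and 343 to 881 with 1 library left out. On TPM it was 534, split as 471 higher and 63 lower beside 409 and 245. In the 7 mice with both tissues it was 131 with mouse as a replicate block and 162 without the block. No paired analysis was possible for knockout against control because those mice share no number. Esr1 without library 33 had −0.33, a description, since its level set that library apart. None of the 32 called genes that were followed through the alternatives turned its direction. The other called genes were not followed in this way. Among the named genes without a call, 7 turned it in 12 alternatives. The balance of higher and lower calls did turn with voom. Without library 33 it was 2263 higher and 1830 lower, beside 42 and 70. For the tissue difference it was 756 higher and 794 lower, beside 409 and 245. Of 541 alternatives over 32 called genes 456 kept the call and 85 lost it, and 13 genes kept it in each. The causes were not tested. Depth limits genes under about 1 CPM.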
